A study of Mus musculus with 6 samples.

Results

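The SOCS family comprises 8 genes, Socs1 to Socs7 and Cish, which encode intracellular inhibitors of cytokine signaling. They were taken by gene symbol from a table of 15319 genes, all 8 were listed, and all 8 had counts in every library. RNA-Seq was performed on tumor-infiltrating Tregs of 3 WT and 3 cKO libraries. WT mice were Foxp3Yfp-Cre and cKO mice were Xrcc6flox/floxFoxp3Yfp-Cre, in which Cre driven by Foxp3 deletes Xrcc6, the gene of the DNA end-binding protein Ku70, in Foxp3-expressing cells, so both groups carried the Foxp3-driven Cre and YFP. Mice of both groups were 8 to 10 weeks old when LLC (Lewis lung carcinoma) cells, a line from a mouse lung tumor, were injected into the tail vein, and Tregs were isolated from the lung tumors at day 21. How many mice gave each library is not given in the sources used here, so the p-values measure the spread between these libraries.

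When a cytokine binds its receptor, receptor-bound JAK kinases phosphorylate STAT transcription factors, and these induce several SOCS genes. The SOCS proteins then act back on the same pathway. Each has an SH2 domain, which binds phosphotyrosine, and a carboxy-terminal SOCS box, which binds elongin B and elongin C and through them a Cullin-5 ubiquitin ligase. Socs1 and Socs3 also carry a short kinase inhibitory region that blocks JAK kinases directly. Cish and Socs2 are known targets of STAT5, the factor downstream of IL-2 on which Tregs depend. Socs1 is known as an inhibitor of interferon-γ and IL-2 signaling, and its loss in Tregs disturbs their stability. Socs3 inhibits receptors that use gp130, such as the IL-6 receptor.

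STAT factors bind the palindrome TTCNNNGAA, where N is any base. Promoter windows running from 250 bases before to 50 bases after a RefSeq start (build GRCm38.p6) were at hand for 4 of the 8 members, which were Cish, Socs1, Socs3 and Socs4. Stretches of 30 bases from 3 of them are shown because they hold the matches described next. Capitals mark the matches.
Cish: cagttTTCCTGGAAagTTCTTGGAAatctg
Socs3: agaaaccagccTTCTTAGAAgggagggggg
Socs1: cttgccgGAAAGAGAAACCGAAAgcggggg

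The Cish stretch lies on the plus strand at chr9:107296654-107296683 and holds 2 copies of TTCNNNGAA, at positions 1 to 9 and 12 to 20 counted from 1 at the RefSeq start. The Socs3 stretch lies on the minus strand at chr11:117969502-117969531 and holds 1 copy, at positions -154 to -146. No TTCNNNGAA was found in the Socs1 window. Its stretch, on the minus strand at chr16:10785597-10785626, holds 2 overlapping copies of an interferon-type repeat of GAAA, 2 bases and GAAA, at positions -83 to -74 and -77 to -68, a motif that was searched on both strands and was added after the windows had been seen. The palindrome reads the same on both strands. Of 32851 promoter windows of the same length, 8.30% held TTCNNNGAA, 0.457% held at least 2 copies and 3.44% held the GAAA repeat. The Socs4 window held neither, and a variant of the palindrome with 4 spacer bases was in none of the 4 windows and in 6.95% of all windows. These are matches of letters, and occupancy by a factor was not measured.

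Libraries held 19032620 to 23159815 counts, and a count of 3 was worth 0.133 to 0.156 CPM (counts scaled to the TMM-adjusted library total), a floor that covers counting error only. Xrcc6 was at 20.9, 63.1 and 23.8 CPM in WT replicates 1 to 3 and at 5.24, 3.51 and 4.18 CPM in the cKO libraries. The difference was -3.06 on the log2 scale (edgeR, adjusted p = 0.984) and became -2.38 when WT replicate 2 was left out, where it passed the threshold (adjusted p = 0.0196). DESeq2 called Xrcc6 with all 6 libraries (adjusted p = 1.22e-05). The Treg marker Foxp3 was at 150 to 282 CPM in the 6 libraries, and Cd8a was at 0 to 2.60 CPM. These genes alone do not show how pure the Tregs were. Macrophage and dendritic cell markers, given below, summed to as much as 1517 CPM (cKO replicate 3).

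WT replicate 2 stood apart from the other libraries. It detected 11513 genes where the others detected 14442 to 14737, and its highest correlation with another library was 0.930, where the others reached at least 0.991. Among genes at 10 to 40 CPM in the rest, 4.69% were more than 10-fold lower in WT replicate 2 and at most 0.0769% in any other library. The comparison of cKO with WT is therefore given for each SOCS gene with and without this library, whereas levels per kilobase and coefficients of variation include it.

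Cish and Socs3 were the most abundant members in Tregs, and together they made up 76.7% to 81.5% of the family's summed CPM in each library. By mean CPM over the 6 libraries, Cish ranked 260 and Socs3 ranked 416 among 15315 genes. Socs1 and Socs2 followed at ranks 1924 and 2421, and Socs7, Socs5, Socs6 and Socs4 lay close together at ranks 6472 to 7304. The summed CPM of the 8 members was 1022, 1151 and 1314 in WT replicates 1 to 3 and 1301, 1149 and 1285 in cKO replicates 1 to 3, so the groups overlapped.

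**Figure D1:**
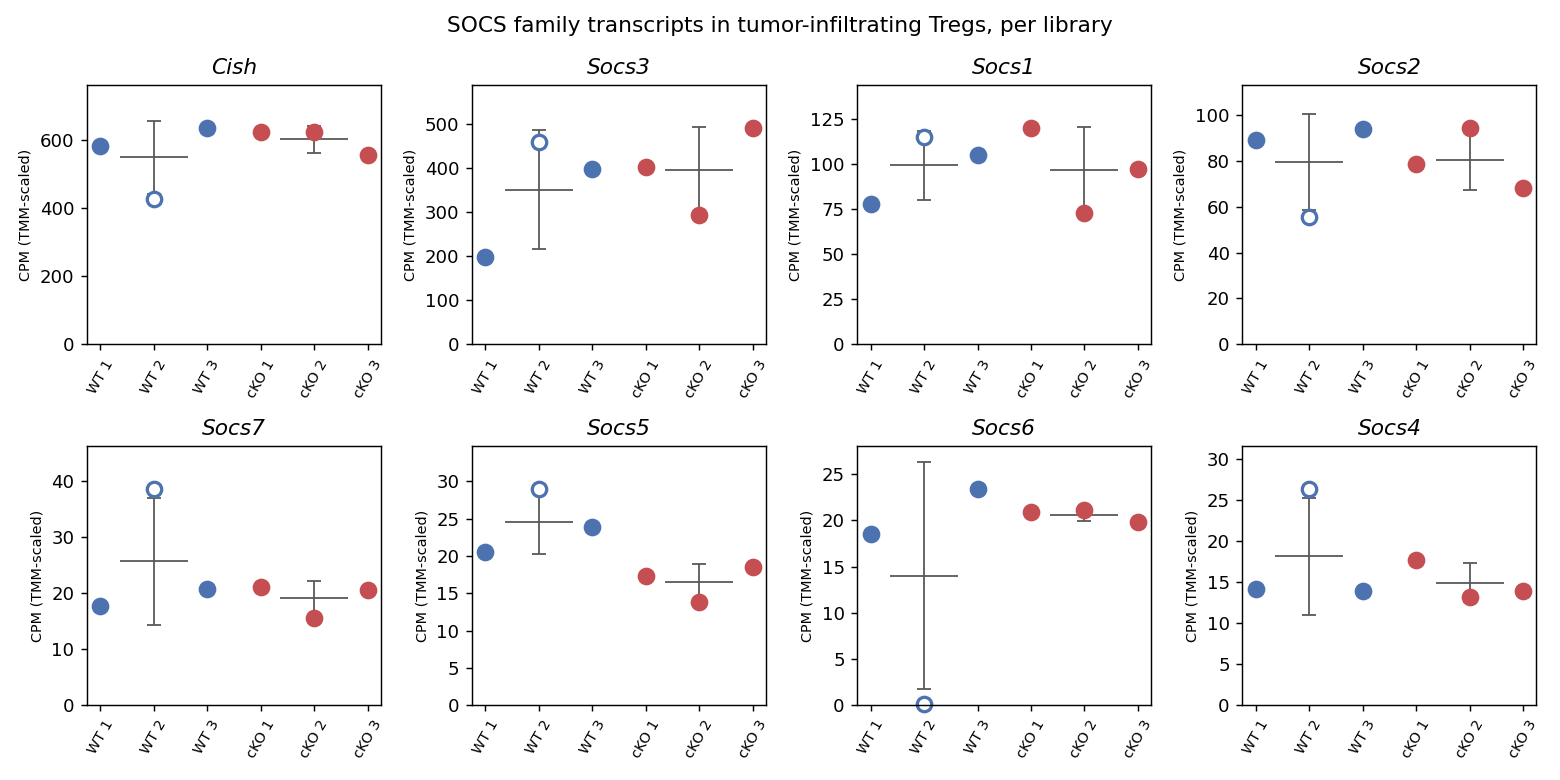
CPM (vertical axis, linear from 0) of each member in the 3 WT (blue) and 3 cKO (red) libraries, with WT replicate 2 as an open circle and grey bars for the mean ± SD of each group (n = 3). Only the Socs5 panel has all cKO libraries below all WT libraries, and Socs6 has 3 counts in WT replicate 2.

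Because genes differ in length, levels were compared between members as CPM per kilobase of exon. On this scale, mean levels ran from 129 for Socs3 through 89.7 for Cish, 33.8 for Socs1 and 8.37 for Socs2 to 3.20 for Socs5, 3.08 for Socs7, 2.40 for Socs4 and 1.53 for Socs6. Socs3 was above Cish in 5 of 6 libraries with overlapping ranges, so their order did not hold in every library. The ranges of Cish and Socs1, of Socs1 and Socs2, and of Socs2 and Socs5 did not overlap, and each of these steps held in 6 of 6 libraries. Socs5, Socs7, Socs4 and Socs6 overlapped with their neighbours. The lengths are the union of all annotated exons (2.89 kb for Socs3, 6.42 kb for Cish, 9.53 kb for Socs2), so a gene whose shorter isoforms are in use is understated. For Cish this union covers most of the gene's span. In mean CPM Cish was above Socs3 (576 and 373), so their order per kilobase rests on these lengths.

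**Figure D2:**
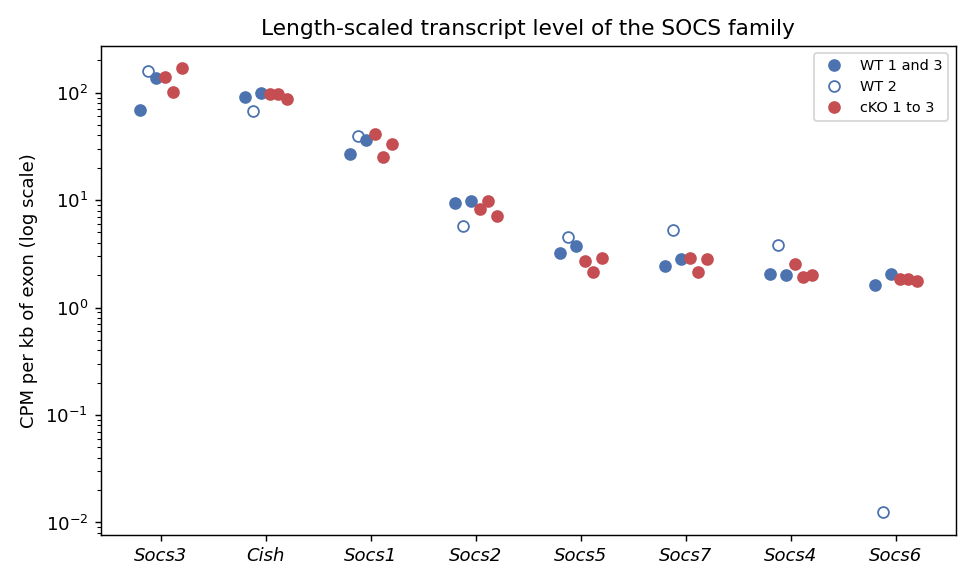
CPM per kilobase of exon (vertical axis, log scale) for each member in order of its mean, with 1 point per library (blue WT, red cKO, open circle WT replicate 2). Socs3, Cish and Socs1 sit at 25.1 or more, Socs2 between 5.80 and 9.87, and the other 4 members at 5.32 or less.

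Of the 8 members, 4 had higher and 4 had lower fitted values in cKO than in WT, with a median log2 fold change of -0.0091 against 0.0439 over all genes. None passed an adjusted p of 0.05 by edgeR's quasi-likelihood test, and neither did any of the 15315 genes tested (0%). At an unadjusted p under 0.05, 1 of 8 members, Socs5, was lower in cKO, beside 1.81% of all genes in either direction. Without WT replicate 2, the median was -0.0179 against -0.0089 over all genes, and the count was again 1 of 8 (Socs5), beside 3.01% of all genes. An adjusted p under 0.05 was then reached by 0.00654% of genes, which is 1 gene, Xrcc6, and by no member.

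**Figure D3:**
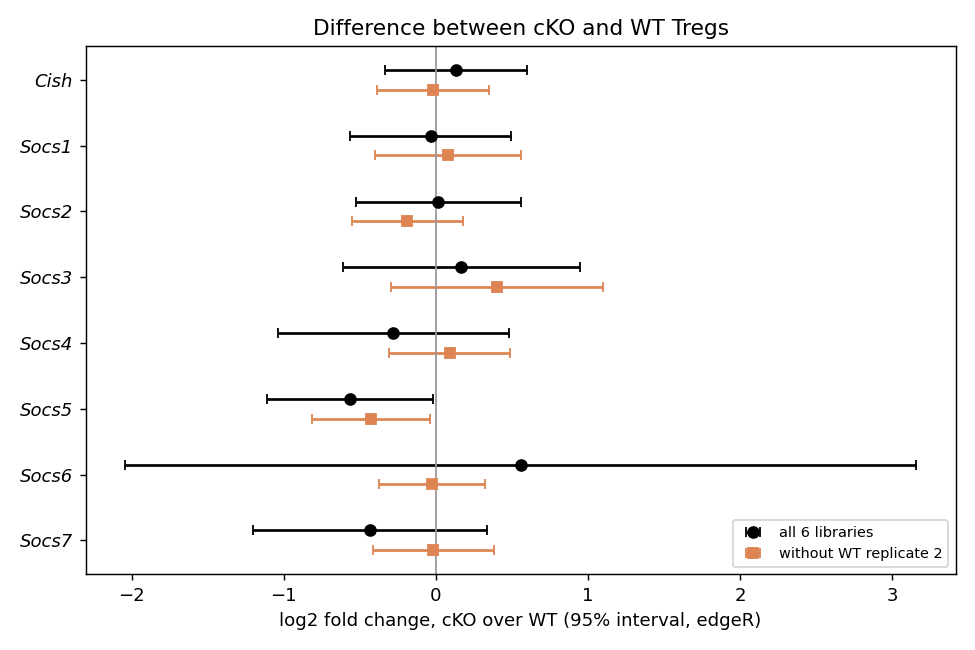
Log2 fold change of cKO over WT (horizontal axis) with 95% intervals from edgeR for each member, with all 6 libraries (black circles) and without WT replicate 2 (orange squares). Both intervals exclude 0 for Socs5 before adjustment, at -1.11 to -0.02 and -0.81 to -0.04, which only restates its unadjusted p under 0.05 in both fits. The Socs6 interval shrinks from -2.04 to 3.16 to -0.37 to 0.32.

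Cish encodes CIS, which is induced by IL-2 through STAT5 and restrains T cell receptor and cytokine signaling. It is on chromosome 9 (107296026 to 107302784, plus strand, GRCm38), and its promoter carries the pair of STAT palindromes printed above. Cish was at 584, 429 and 636 CPM in WT replicates 1 to 3 and at 624, 626 and 558 CPM in cKO replicates 1 to 3. WT replicate 2 was the lowest, and the other 5 libraries lay between 558 and 636 CPM with the groups overlapping. Its log2 fold change was 0.13 ± 0.20 (SE, n = 3 per group, edgeR, adjusted p = 0.984), and without WT replicate 2 it was -0.019 with a 95% interval of -0.39 to 0.35. Exons of Cish overlap 2 annotated genes on the opposite strand, Gm17040 and Gm17041, neither of which is listed in the count table. No source used here says if reads were counted by strand, so those of Cish and of its antisense partners cannot be told apart.

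Socs2 encodes an inhibitor of growth hormone receptor signaling and, like Cish, is a STAT5 target. It lies on chromosome 10 (95385362 to 95417180, minus strand). Socs2 was at 89.0, 55.3 and 93.7 CPM in WT and at 78.6, 94.1 and 68.0 CPM in cKO. WT replicate 2 was again the lowest, and the groups overlapped. Socs2 had a log2 fold change of 0.017 ± 0.23 (SE, edgeR, adjusted p = 0.996), and one of -0.19 without WT replicate 2 (95% interval -0.55 to 0.18). The ratio of Cish to Socs2 in CPM stayed between 6.57 and 8.20 over the 6 libraries, while that of Cish to Socs3 ran from 0.937 in WT replicate 2 to 2.93 in WT replicate 1.

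Over the 6 libraries, Cish and Socs2 were each other's nearest member by profile. The distance used was the root mean square difference of log2(CPM + 0.5), centred on each gene's mean over the 6 libraries, and for this pair it was 0.130, against an SD of 0.196 for the Cish profile and 0.276 for the Socs2 profile. Over the 5 libraries without WT replicate 2 their distance was 0.136, more than the SD of the Cish profile there (0.0718), and the member nearest to Cish was Socs6 at 0.0734. Among 8447 genes with a mean of at least 10 CPM, the nearest to Cish over the 6 libraries were Ppp3cc (0.0445), Zfp639 (0.0465) and Tigd2 (0.0468). Those nearest to Socs2 were Spryd7 (0.0630), Mrpl39 (0.0807) and Snrpd3 (0.0834). In all 6 of these genes WT replicate 2 was the lowest library, for example at 44.1 CPM for Ppp3cc against 62.2 to 66.7 CPM in the others. Picking genes by likeness to profiles that are lowest there favours this. The same library was lowest for 39.6% of the 8447 genes.

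Socs1 lies on chromosome 16 (10782240 to 10785536, minus strand). Its level was 78.2, 115 and 105 CPM in WT and 120, 73.1 and 97.3 CPM in cKO. Both groups held a low library, WT replicate 1 and cKO replicate 2, and they overlapped throughout. Between groups the log2 fold change was -0.035 ± 0.23 (SE, edgeR, adjusted p = 0.995), and 0.080 without WT replicate 2 (95% interval -0.40 to 0.56).

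Socs3, on chromosome 11 (117966079 to 117970047, minus strand), had 1 STAT palindrome in its promoter window. It was at 199, 458 and 398 CPM in WT and at 401, 293 and 490 CPM in cKO. The 2 lowest libraries were again WT replicate 1 and cKO replicate 2, 1 from each group. For Socs3 the log2 fold change was 0.17 ± 0.33 (SE, edgeR, adjusted p = 0.984), and 0.40 without WT replicate 2 (95% interval -0.30 to 1.10, adjusted p = 0.997). Without WT replicate 1, the lowest library, the sign turned and the value was -0.12.

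Within the cKO group, Socs1 and Socs3 varied more than most genes with a mean of at least 10 CPM. Their coefficients of variation over the 3 cKO libraries were 24.5% and 25%, at percentiles 94.0 and 94.4 of the 8447 genes, where the median was 9.85%. Socs2, Socs7, Socs4 and Socs5 lay at percentiles 80.9, 78.9, 78.8 and 75.1 in the same libraries, so a high spread was not particular to Socs1 and Socs3. Cish varied by 6.45% there, at percentile 28.5, and Socs6 lay at percentile 8.69. In WT the median over genes was 23.5%, and Socs1 at 19.2% and Socs3 at 38.5% lay at percentiles 39.4 and 75.7. The genes nearest in profile to Socs3 were Pou6f1 (0.129), Axin2 (0.129) and Evl (0.139), and those nearest to Socs1 were Abcc4 (0.0731), Kdm3a (0.0761) and Zbtb20 (0.0775). For Socs3 the nearest member was Socs1 at a distance of 0.298, which was larger than the spread of Socs1 itself (SD 0.268). Without WT replicate 2 it was 0.323, and Socs1 remained the nearest member to Socs3.

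**Figure D4:**
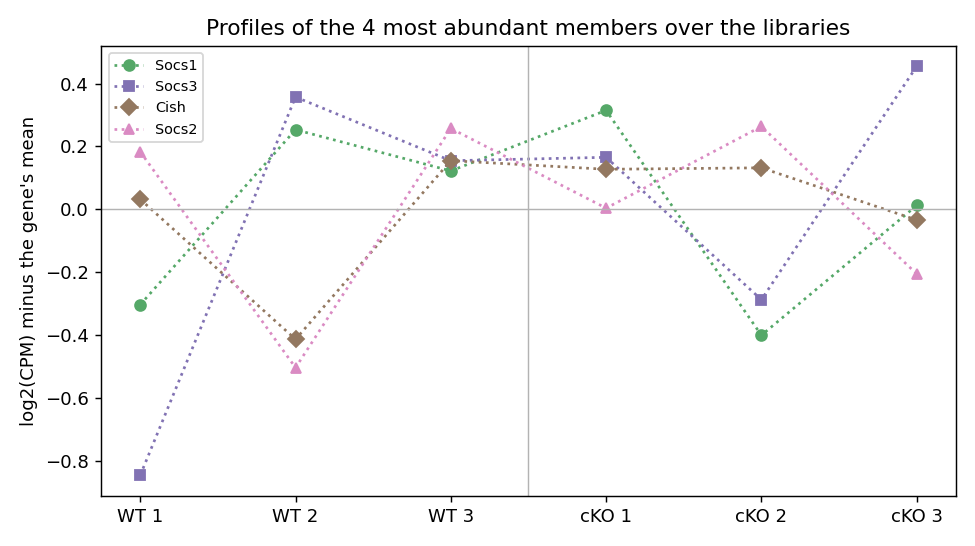
Log2(CPM) minus each gene's mean (vertical axis) over the 6 libraries for the 4 most abundant members, with dotted lines only to guide the eye. Socs1 and Socs3 are low in WT replicate 1 and cKO replicate 2, whereas Cish and Socs2 are lowest in WT replicate 2.

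Myeloid cells also express Socs3. The summed CPM of 14 macrophage and dendritic cell markers was 261.5, 893.1 and 906.9 in WT replicates 1 to 3 and 323.3, 790.5 and 1517 in cKO replicates 1 to 3. The lowest sum and the highest sum were in the libraries with the lowest and highest Socs3, WT replicate 1 and cKO replicate 3, but cKO replicate 1 paired the next lowest sum with 401 CPM of Socs3. Lyz2, the lysozyme gene and the most abundant of these markers, ran from 129 to 625 CPM, and none of the 14 was at 0 in every library. The part of these cells in the Socs3 level was not tested, and fewer cells of a type cannot be told apart from less RNA per cell.

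Socs5 encodes a member with a long amino-terminal region that is known to restrain EGF receptor and IL-4 receptor signaling. It lies on chromosome 17 (87107679 to 87137839, plus strand). Socs5 was at 20.5, 29.0 and 23.9 CPM in WT (429, 617 and 459 counts) and at 17.3, 13.8 and 18.5 CPM in cKO (372, 288 and 417 counts). It was the one member whose groups did not overlap, as the highest cKO library stayed below the lowest WT library. Groups without overlap and lower in cKO were found for 3.23% of all genes, and for 7.53% without WT replicate 2. The opposite order was found for 5.01% and 8.48% of genes and for no member.

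Mean Socs5 levels were 24.5 ± 4.27 CPM in WT and 16.5 ± 2.43 CPM in cKO (SD, n = 3 each), a fold of 0.676. On the log2 scale the change was -0.56 ± 0.23 (SE, edgeR, adjusted p = 0.984), and -0.43 ± 0.17 without WT replicate 2 (SE, adjusted p = 0.997), a fold of 0.745. An exact two-sided permutation test over libraries gave p = 0.1, the smallest that 3 against 3 allows, beside unadjusted p-values of 0.045 with edgeR and 0.0255 with DESeq2. Under DESeq2, 2.01% of genes had an unadjusted p under 0.05. Socs5 thus failed the correction over all genes, and its unadjusted p rose to between 0.0719 and 0.158 when WT replicate 3 or any single cKO library was left out.

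Socs4, the closest relative of Socs5 in the family, is on chromosome 14 (47276931 to 47296102, plus strand). Its level was 14.1, 26.3 and 13.9 CPM in WT and 17.6, 13.2 and 13.9 CPM in cKO. WT replicate 2 was high and the other 5 libraries overlapped. It had a log2 fold change of -0.28 ± 0.33 (SE, edgeR, adjusted p = 0.984) and 0.090 without WT replicate 2 (95% interval -0.31 to 0.49).

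Socs7, on chromosome 11 (97362551 to 97398542, plus strand), encodes a member that binds the adaptor NCK. It too was highest in WT replicate 2. Socs7 was at 17.7, 38.6 and 20.8 CPM in WT and at 21.1, 15.6 and 20.5 CPM in cKO. The log2 fold change of -0.43 ± 0.33 (SE, edgeR, adjusted p = 0.984) went to -0.017 without WT replicate 2, with an interval of -0.41 to 0.38. Socs4 and Socs7 were nearest to each other among the members, at a distance of 0.143. Without WT replicate 2 it was 0.142, and Socs7 was then nearer to Socs1 (0.128).

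Socs6, which encodes an inhibitor of the receptor tyrosine kinase KIT, lies on chromosome 18 (88665224 to 88927481, minus strand). Its counts were 387, 3 and 449 in WT and 450, 439 and 446 in cKO. In CPM these were 18.5, 0.141 and 23.4 in WT and 20.9, 21.1 and 19.8 in cKO. WT replicate 2 was at the floor of 3 counts, 0.0068-fold of the mean of the other 5 libraries, whereas those 5 lay between 18.5 and 23.4 CPM. Its log2 fold change was 0.56 ± 1.11 (SE, edgeR, adjusted p = 0.984), and without WT replicate 2 it was -0.024 ± 0.15 (SE, adjusted p = 0.997). In the cKO libraries Socs6 varied by 3.26%, at percentile 8.69 of the 8447 genes.

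Only 32 of 8447 genes were further down in WT replicate 2 than Socs6, relative to the other 5 libraries on the log2(CPM + 0.5) scale. The other members moved by less in that library. Relative to the mean of the other 5 it was 2.02-fold for Socs7, 1.81-fold for Socs4, 1.54-fold for Socs5, 1.28-fold for Socs3, 1.21-fold for Socs1, 0.708-fold for Cish and 0.653-fold for Socs2. WT replicate 2 was the highest library for 3 members (Socs4, Socs5, Socs7) and the lowest for 3 (Cish, Socs2, Socs6). Over the 8447 genes it was highest for 37.6% and lowest for 39.6%, so an extreme value in this library was common.

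**Figure D5:**
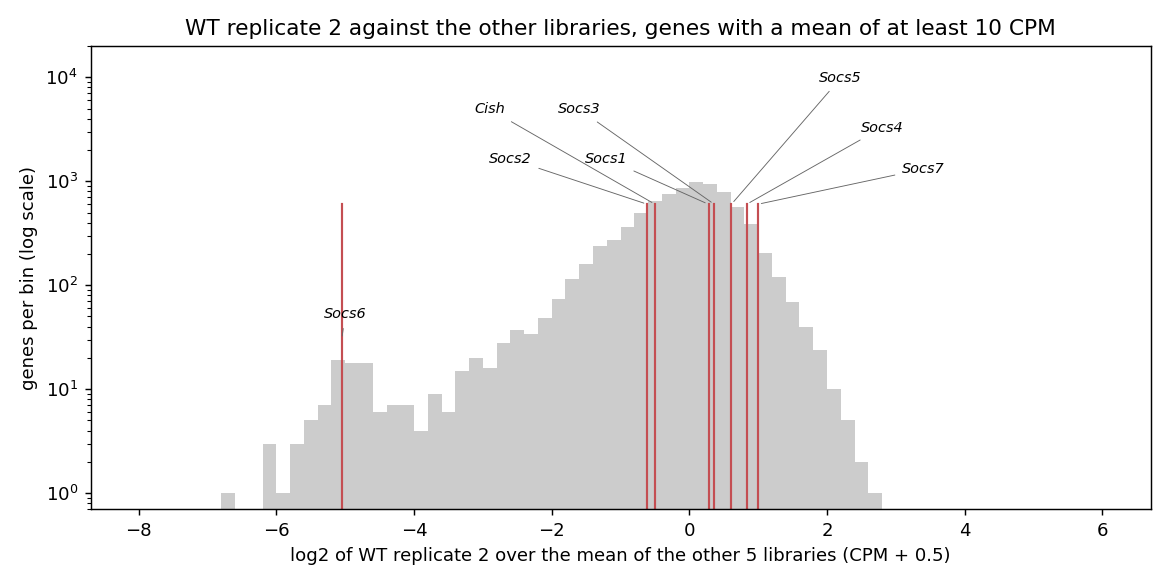
Number of genes per bin (vertical axis, log scale) by the log2 ratio of WT replicate 2 to the mean of the other 5 libraries (horizontal axis, CPM + 0.5), over 8447 genes with a mean of at least 10 CPM, with red lines at the 8 members. Socs6 sits in the far left tail, and the other 7 members lie between -0.61 and 0.99.

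The genes around the SOCS proteins in the pathway were compared in lists, of which none held a gene at an adjusted p under 0.05 (edgeR), with or without WT replicate 2. Among 36 JAK-coupled cytokine receptor genes with counts, 16 were higher and 20 lower in cKO, with a median log2 fold change of -0.06, and for none was the unadjusted p below 0.05. Leaving out WT replicate 2 turned the split to 20 higher and 16 lower with a median of 0.01. Il4ra, the IL-4 receptor gene, was then the 1 gene of the 36 at an unadjusted p under 0.05, beside 3.01% of all genes. It was at 304, 469 and 331 CPM in WT and at 420, 392 and 415 CPM in cKO, so the left-out library was the highest. Its log2 fold change was 0.15 with all 6 libraries and 0.37 without WT replicate 2 (edgeR, adjusted p = 0.984 and 0.997). The list was led by Il2rb and Il2rg, which encode signaling chains of the IL-2 receptor, and Ifngr1, the ligand-binding chain of the interferon-γ receptor. Il2rb was at 1530, 1000 and 1070 CPM in WT and at 1390, 1260 and 1150 CPM in cKO. Its log2 fold change was 0.08, that of Il2rg was 0.08 and that of Ifngr1 was 0.10.

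Of 10 JAK and STAT genes, 4 were higher and 6 lower with a median of -0.017, none at an unadjusted p under 0.05. The log2 fold change was 0.09 for Stat3, 0.20 for Jak1 and -0.56 for Jak2. Stat3 was at 801, 417 and 459 CPM in WT and at 710, 570 and 500 CPM in cKO, so WT replicate 2 held its lowest value as it did for Cish. Jak2 was at 335, 656 and 366 CPM in WT and at 330, 295 and 297 CPM in cKO, without overlap (edgeR, adjusted p = 0.984). Groups without overlap and lower in cKO were found for 3.23% of all genes. The log2 fold change of Jak2 was -0.19 when WT replicate 2, its highest library, was left out. Of 24 STAT-activating cytokine genes, 13 were higher and 11 lower with a median of 0.07, none at an unadjusted p under 0.05 (edgeR). Without WT replicate 2, 9 were higher and 15 lower with a median of -0.20. Of the 24, 2 were then lower at an unadjusted p under 0.05, beside 3.01% of all genes in either direction. Il10 was at 160, 173 and 182 CPM in WT and at 108, 181 and 126 CPM in cKO (log2 fold change -0.31, adjusted p = 0.984). Ifng and Ebi3, a subunit of IL-27 and IL-35, had log2 fold changes of -0.48 and -0.016 (adjusted p = 0.984 and 0.996).

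Genes listed as induced by STAT factors were grouped by factor. Whether a factor raises or lowers each listed gene in these cells, Bcl6 of the STAT5 list among them, was not tested. Of 20 genes listed as STAT5-induced, 6 were higher and 14 lower in cKO, with a median log2 fold change of -0.12. At an unadjusted p under 0.05, 2 were lower, beside 1.81% of all genes in either direction. Without WT replicate 2 the count was 1, beside 461 of all 15302 genes tested, and the median was -0.04. The count was 0 without cKO replicate 3, beside 65 of 15300 genes. It was 1 without WT replicate 3 (beside 575 of 15302 genes) and 1 without cKO replicate 2 (beside 72 of 15307 genes). It was 3 without WT replicate 1, where 874 of all 15312 genes tested passed. The 3 most abundant, the kinase gene Pim1, the receptor gene Tnfrsf9 (4-1BB) and the lymphotoxin β gene Ltb, had log2 fold changes of -0.29, -0.0041 and 0.10. Lta, which encodes lymphotoxin α, was at 40.2, 69.4 and 43.8 CPM in WT and at 34.4, 31.0 and 27.8 CPM in cKO. Like 3.23% of all genes, Lta was lower in cKO without overlap. Its log2 fold change was -0.72 (edgeR, adjusted p = 0.984) and became -0.44 when WT replicate 2 was left out (adjusted p = 0.997), with an unadjusted p under 0.05 in both.

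Of 16 genes listed as STAT3-induced, 4 were higher and 12 lower with a median of -0.28, and the median was -0.07 without WT replicate 2. In both fits 0 genes of this list were at an unadjusted p under 0.05. Without WT replicate 1 the count was 4, where 874 of all 15312 genes tested passed. WT replicate 2 was the highest library for 11 of the 16 and reached a sum of 10950 CPM, where the others summed to 6204 to 7650 CPM. Junb and Fos, both subunits of the AP-1 factor, were at 7390 and 1130 CPM in WT replicate 2, above all other libraries, where Junb was at 3300 to 4590 CPM. Their log2 fold changes were -0.32 and -0.03, and that of Rora, which encodes a nuclear receptor, was -0.25.

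Among the partners of the SOCS box, 10 elongin and cullin complex genes had counts, 6 higher and 4 lower in cKO with a median of 0.09, and none at an unadjusted p under 0.05. Leaving out WT replicate 2 turned this to 2 higher and 8 lower with a median of -0.09. Elob, the gene of elongin B, was at 273, 97.8 and 192 CPM in WT and at 175, 263 and 199 CPM in cKO. Its log2 fold change was 0.18, and those of Rnf7, the RING subunit of Cullin-5 ligases, and Arih2, a ubiquitin ligase that works with Cullin-5, were -0.11 and 0.13. Arih2 was higher in cKO without overlap, as were 5.01% of all genes. Of 20 other SOCS box genes with counts, 11 were higher and 9 lower, and Wsb1, Asb2 and Spsb3 had log2 fold changes of -0.26, -0.18 and 0.09. Of 18 other negative regulators of cytokine signaling, 8 were higher and 10 lower with a median of -0.0027. Without WT replicate 2, 6 were higher and 12 lower. Of the 18, 1 (Ptpn11) was then lower at an unadjusted p under 0.05, beside 3.01% of all genes in either direction. The most abundant of them, the phosphatase gene Ptprc (CD45), the adaptor gene Sla and the ubiquitin ligase gene Cblb, had log2 fold changes of -0.03, 0.01 and -0.05, and each group's range overlapped the other's.

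Markers of other cells that the Treg isolation could hold were summed in each library. CD8 T and NK cell markers summed to 90.33 CPM in WT replicate 2 and to 297.2 to 760.2 CPM in the others, nearly all of it Nkg7, which activated T cells also express, and Ncr1 had no value. B and plasma cell markers summed to 15.22 to 70.45 CPM, led by Cd79b. At an unadjusted p under 0.05, 1 of the 9 with counts was higher in cKO, beside 144 of all 15315 genes. Without WT replicate 2 it was 0 of the 9. No value for Ighm was at hand, and neither was one for Trac or Trbc2, constant-region genes of the T cell receptor that Tregs express, so a constant-region gene without a value says nothing of its level. Neutrophil markers, led by Cxcr2, summed to 11.47 to 20.49 CPM, and 3 of the 9 with counts were higher in cKO at an unadjusted p under 0.05, where 144 of all 15315 genes were. Mpo, Elane and Camp had no values. Lung epithelium and LLC markers, led by Scgb1a1, summed to 41.54 to 109 CPM, and endothelial and stromal markers, led by Pecam1, to 61.80 to 97.98 CPM. None of these sums separated the 2 genotypes. Gene by gene, more markers were higher than lower in cKO in each list of other cells. The splits were 10 to 4 for macrophages and dendritic cells, 9 to 2 for CD8 T and NK cells. They were 6 to 3 for B and plasma cells, 7 to 2 for neutrophils, 6 to 5 for lung and LLC, 9 to 1 for endothelium and stroma. Without WT replicate 2 they were, in this order, 12 to 2, 5 to 6, 8 to 1, 6 to 3, 2 to 9 and 8 to 2. The part of these cells in the Socs5 difference was not tested. Treg markers, led by Tnfrsf4 (OX40), summed to 7902 to 11290 CPM.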

How the data were processed

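RNA-Seq of tumor-infiltrating Tregs gave 6 libraries. Paired-end reads were aligned to GRCm38 by the authors, who deposited an expected count for each gene symbol and library, not normalized. Bowtie2 (2.3.4.3) and RSEM (1.3.1) are named in the submitters' processing notes. RSEM divides reads shared by genes by an estimate, so 21.6% of values were not whole, and counts were rounded. Which annotation was counted, and whether strand was used, is not given in the sources used here.

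The 15315 genes with at least 1 count were tested in R (4.3.3) with edgeR (4.0.16), TMM scaling, the quasi-likelihood test and Benjamini-Hochberg adjustment over all genes, threshold 0.05. Alternatives were each library left out, a replicate block, DESeq2 (1.42.0), scaling by library size only or by median of ratios, filterByExpr (minimum count 10), robust dispersions, and voomWithQualityWeights of limma (3.58.1). Exact permutation tests were two-sided. A chi-square of counts between replicates showed differences beyond sampling noise in every pair, so each library was used as 1 sample. Scripts were tested on simulated data.

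Positions, exon lengths and overlaps came from GENCODE vM21 and promoters from RefSeq. The GAAA repeat, and profile distances without WT replicate 2, were added after the data were seen. No protein comparison was made. The members and lists were chosen with earlier results of these data known. Named genes were the 8 members, Xrcc6, the 3 most abundant genes of each pathway list, list genes with p under 0.05 both with and without WT replicate 2, the most abundant gene of each marker list with markers at 0, and the 3 genes nearest in profile to Cish, Socs1, Socs2 and Socs3. Foxp3, Cd8a, Il4ra and Ptpn11 were named outside this rule. An item of this rule is not reported here.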

Additional observations from a re-analysis of the deposited data

How the results depend on the processing

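No member passed an adjusted p of 0.05 under any of the 15 alternatives, and Socs5 (-0.68 to -0.43) and Socs7 (-0.64 to -0.017) kept a lower value in cKO in 15 of 15. Other directions turned, each from a log2 fold change smaller than its standard error. With library size only, Socs2 was at -0.0349. With voomWithQualityWeights, Socs2 was at -0.2051, Socs4 at 0.002 and Cish at -0.0356. With DESeq2 and WT replicate 2 left out, Socs1 was at 0.0773, Socs2 at -0.1896, Socs4 at 0.0874, Socs6 at -0.0272 and Cish at -0.0218. With library size only and WT replicate 2 left out, they were at 0.0826, -0.2009, 0.0908, -0.0365 and -0.0284. The cause was not tested.

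Leaving out 1 library at a time gave ranges of -0.2218 to 0.1324 for Socs1, -0.1867 to 0.1577 for Socs2, -0.116 to 0.4015 for Socs3, -0.4337 to 0.0896 for Socs4, -0.0244 to 1.1437 for Socs6 and -0.019 to 0.2535 for Cish. Socs1 turned without WT replicate 2, WT replicate 3 or cKO replicate 2, Socs2 without WT replicate 2 or cKO replicate 2, Socs3 without WT replicate 1 or cKO replicate 3, and Socs4, Socs6 and Cish without WT replicate 2.

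The count of members at an unadjusted p under 0.05 fell from 1 to 0 with library size only, with library size only and WT replicate 2 left out, and with the replicate block, and ran from 0 to 1 with 1 library left out. Over all genes, an adjusted p under 0.05 was reached by 2 genes with DESeq2, 3 with DESeq2 and WT replicate 2 left out, 1 with library size only and WT replicate 2 left out, and 0 to 1 with 1 library left out. At an unadjusted p under 0.05 there were 277 genes with edgeR, 140 with filterByExpr, 543 with voomWithQualityWeights and 65 to 874 with 1 library left out. The replicate block gave 85. The correlations of same-numbered WT and cKO deviations were -0.0121, -0.214 and 0.199, and those of differently numbered libraries ran from -0.308 to 0.307. With 3 libraries per group, these values cannot show whether the numbers pair the samples.

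The family's median log2 fold change ran from -0.1487 (without WT replicate 1) to 0.0826 with 1 library left out. With 1 library left out, list medians ran from 0.039 to 0.3416 (without WT replicate 3) for other SOCS box genes and from -0.3935 to -0.0742 (without WT replicate 2) for STAT3-induced genes. At 3 libraries per group, Socs6 could not be placed to better than its interval of -2.04 to 3.16 with WT replicate 2 included.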
